A study of Mus musculus with 20 samples.

Results

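Blood stem and early progenitor cells express receptors, surface markers and transcription factors that are partly lost as cells enter the B lineage. 10 such genes, Flt3, Kit, Cd34, Meis1, Lmo2, Erg, Runx1, Mef2c, Hhex and Myb, were followed here by name in the chromatin-associated RNA of mouse pre-B cells. All 10 matched a gene identifier among the 56239 genes counted. 6 of them, Flt3, Erg, Runx1, Mef2c, Hhex and Myb, passed the filter on low counts, and 4, Kit, Cd34, Meis1 and Lmo2, had 3 counts or fewer in every library, which is taken here as the count floor.

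All libraries came from B3, a mouse pre-B cell line transduced with a retrovirus for Ikaros-ERt2, in which the transcription factor Ikaros (IKZF1) is fused to an estrogen receptor domain that enters the nucleus when 4-hydroxytamoxifen (4-OHT) is added. The 0 h libraries were untreated, and the others received 500 nM 4-OHT for 30 min or for 1, 2, 6, 12, 15, 18, 21 or 24 h, with 2 libraries at each of the 10 time points and 20 in all. Transduced cells were a GFP-sorted population per the study's methods, and every library carries the fusion. Cells given 4-OHT without the fusion were not analysed here, so that effects of 4-OHT itself, of time in culture and of Ikaros cannot be told apart.

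Flt3 and Kit encode receptor tyrosine kinases that receive the growth signals FLT3 ligand and stem cell factor, and Cd34 encodes a surface sialomucin used to sort progenitors. Meis1, Lmo2, Erg, Runx1, Mef2c, Hhex and Myb encode transcription factors or, for Lmo2, an adaptor that holds such factors together. Several of them keep a role in early B cells, where Runx1, Mef2c and Myb in particular are needed for normal development. Ikaros proteins are zinc finger factors that are required for lymphoid development and bind sequences with a GGGAA core.

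The libraries held 33296158 to 46868954 counts per library. Libraries of the same time point differed by a chi-square of 1.24 to 2.43 per degree of freedom, except at 12 h (9.04), 18 h (13.4) and 21 h (4.42), and the labels do not say that the libraries come from separate cultures. Of 13 genes of pro-B and pre-B cells, 11 were measured, with a summed level of 8310 to 16500 CPM, that is counts scaled by the size of each library, per library, while Rag1 and Rag2, which every developing lymphocyte needs to rearrange its receptor genes, were at 0 counts in all 20. Ebf1, a master regulator of B cells, stood at 9793 ± 53.1 CPM at 0 h (SD, n = 2), and Pax5, which maintains B cell identity, at 1074 ± 1.54 CPM. Ebf1 made up most of the summed level, which therefore does not show that all of these genes were high. At 0 h Il7r was at 324 CPM, Cd79a at 32.1 CPM, Dntt at 6.25 CPM and Vpreb2 at 0.398 CPM. Igll1, a surrogate light chain gene and Ikaros target, fell from 169 ± 2.09 CPM at 0 h to 0.985 ± 0.126 CPM at 24 h. Of 17 markers of myeloid, T, erythroid and megakaryocytic cells, 9 were at the floor in every library, Itgam and Pf4 among them at 0, and the summed level of all 17 was 4.69 and 4.37 CPM at 0 h and 3.49 and 3.15 CPM after 24 h.

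Levels are given as CPM after scaling with edgeR's TMM factors, and every comparison with 0 h uses the same 2 untreated libraries. A gene was called changed in edgeR's quasi-likelihood test at a Benjamini-Hochberg adjusted p below 0.01 with a fold change above 2, and only such genes are said to have risen or fallen. Of the 10 listed genes 0 were called at 30 min, when 0.0542% of all 16601 genes tested were called up and 0.410% down, and 0 at 1 h, when 2.33% were called up and 4.84% down. 2 were called at 2 h (6.25% of all genes up, 6.91% down), at 6 h (10.9% up, 9.13% down) and at 12 h (13.2% up, 9.92% down), in each case Flt3 up and Runx1 down. Only Flt3 was called later, upward, at 15 h (28.4% of all genes called in either direction), 18 h (36.6%), 21 h (39.5%) and 24 h (40.1%). Without the fold limit, 1 of the 6 genes tested passed at 30 min (8.44% of all genes), 4 at 1 h (36.3%), 5 at 2 h (47.7%) and 3 at 6 h (57.3%). Later it was passed by 5 of the 6 at 12 h (60.7%), by 5 at 15 h (65.7%), by 5 at 18 h (71.3%), by 4 at 21 h (71.6%) and by 5 at 24 h (71.5%). Their median log2 fold change was -0.27 at 2 h and 0.32 at 24 h, beside 0.026 and -0.011 over all genes tested. Across the whole time course, Flt3 and Runx1 were called, as were 51.9% of all genes, and Flt3, Runx1, Mef2c, Hhex and Myb passed the adjusted p at any fold, as did 88.0%.

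**Figure D1:**
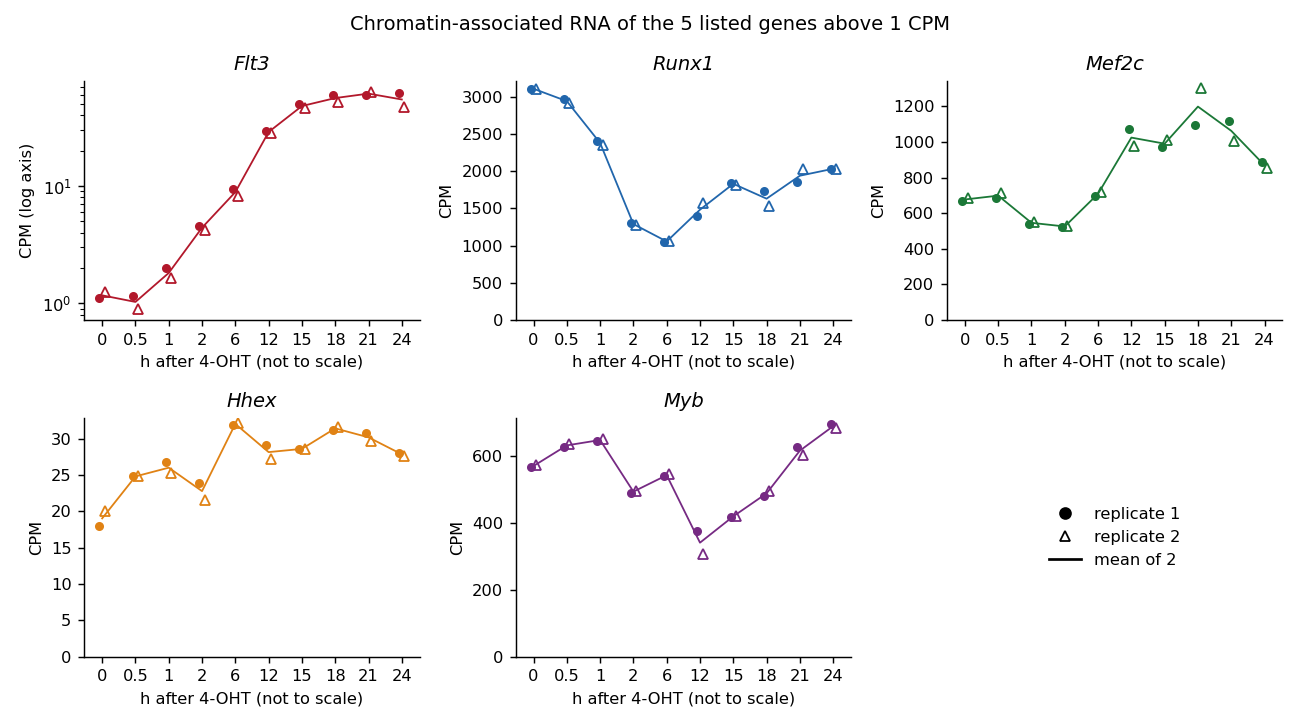
Level in CPM (vertical axis, logarithmic for Flt3 and linear from 0 for the others) of the 5 listed genes averaging at least 1 CPM, at each time after 4-OHT (horizontal axis, evenly spaced, not to scale). Filled circles are replicate 1, open triangles replicate 2 and lines the mean of both. Flt3 climbs from about 1 to above 46 CPM in all libraries from 15 h on, and Runx1 reaches its lowest level at 6 h.

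Flt3 marks progenitors that can still form lymphoid and myeloid cells, and its receptor supports the earliest lymphoid cells. Runx1 is the DNA-binding subunit of core binding factor, which is needed to form blood stem cells and acts again in early B cells. The promoter sequences of these genes, the only listed ones called, are shown with each GGGAA or its reverse complement TTCCC in capitals. They are RefSeq windows of 250 bases before to 50 bases after a transcript start on GRCm38.p6, written 5′ to 3′ along the gene, which lies on the minus strand in all cases.
Flt3, chr5:147400440-147400739: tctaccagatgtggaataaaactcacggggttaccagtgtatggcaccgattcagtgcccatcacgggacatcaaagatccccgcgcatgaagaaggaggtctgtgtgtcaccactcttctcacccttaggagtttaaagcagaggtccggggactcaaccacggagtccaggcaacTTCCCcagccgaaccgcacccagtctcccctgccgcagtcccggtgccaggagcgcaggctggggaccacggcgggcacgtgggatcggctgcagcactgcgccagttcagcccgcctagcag
Runx1, start at the upstream end of the gene, chr16:92826025-92826324: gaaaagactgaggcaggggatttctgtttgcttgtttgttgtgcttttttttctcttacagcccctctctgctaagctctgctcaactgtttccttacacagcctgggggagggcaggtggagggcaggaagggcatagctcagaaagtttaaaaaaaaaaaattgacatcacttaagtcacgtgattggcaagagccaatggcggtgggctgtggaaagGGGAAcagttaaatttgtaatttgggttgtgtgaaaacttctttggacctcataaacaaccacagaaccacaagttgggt
Runx1, start within the gene, chr16:92697280-92697579: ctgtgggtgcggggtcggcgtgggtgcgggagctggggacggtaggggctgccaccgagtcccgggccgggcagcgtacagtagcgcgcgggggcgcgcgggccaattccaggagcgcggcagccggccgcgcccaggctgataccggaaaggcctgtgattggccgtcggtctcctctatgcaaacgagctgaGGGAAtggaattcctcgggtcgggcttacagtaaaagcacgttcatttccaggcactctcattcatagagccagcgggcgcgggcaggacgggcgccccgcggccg
Each of these windows held the core once. Of 15 such windows found for 9 of the 10 genes, with none for Lmo2, 9 held GGGAA on either strand, as did 62.7% of 32851 mouse promoter windows of the same length.

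Flt3 (ENSMUSG00000042817) lies on chromosome 5 of GRCm38 from 147330741 to 147400489 on the minus strand. At 0 h it had 51 and 55 counts, or 1.10 and 1.24 CPM. At 30 min it stood at 1.17 and 0.891 CPM, which overlaps the untreated level, and at 1 h at 1.99 and 1.65 CPM, both above it. Levels were 4.59 and 4.23 CPM after 2 h, 9.46 and 8.28 CPM after 6 h and 29.6 and 28.1 CPM after 12 h. From 15 h the libraries ran from 46.3 to 63.3 CPM, with 49.6 and 46.3 CPM after 15 h, 60.1 and 52.2 CPM after 18 h, 59.1 and 63.3 CPM after 21 h, and 61.9 and 47.3 CPM after 24 h. Every library from 1 h on was thus above both untreated libraries. Both libraries of 15 h were under both of 18 h and both of 21 h. The libraries of 18 and 21 h overlapped, and those of 24 h overlapped all of 15, 18 and 21 h. Fewer cells of a type and less RNA per cell cannot be told apart in such bulk libraries, and the same holds for a rise.

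The log2 fold change of Flt3 was -0.20 at 30 min (standard error 0.295, edgeR adjusted p = 0.748) and 0.64 at 1 h (standard error 0.253, edgeR adjusted p = 0.0423). It rose 3.76-fold at 2 h (log2 fold change 1.91, standard error 0.213, edgeR adjusted p = 1.07e-07) and 7.56-fold at 6 h (edgeR adjusted p = 8.78e-12). Log2 fold changes of 4.62, 5.36, 5.58 and 5.71 followed at 12, 15, 18 and 21 h, with standard errors of 0.148 to 0.158. At 24 h Flt3 was 46.5-fold above 0 h (log2 fold change 5.54, standard error 0.150, edgeR adjusted p = 8.99e-19). Tests against later time points do not use the 0 h libraries: at 24 h Flt3 was 12.4-fold above 2 h (edgeR adjusted p = 6.74e-17), where 16.2% of all genes were called up and 16.6% down, and 6.15-fold above 6 h (edgeR adjusted p = 3.50e-15), where 10.9% were called up and 12.8% down. It was the only listed gene called in either comparison, and 5 of the 6 tested passed the adjusted p at any fold in each, as did 66.5% of all genes from 2 h and 59.5% from 6 h. Among 12056 genes averaging at least 1 CPM, 135, 121 and 79 had a larger log2 fold change at 2, 6 and 24 h. The midpoint of the rise on the log2 scale was passed at 5.83 h, interpolated between time points (5.34 and 6.40 h in the single replicates), and the midpoint in CPM at 12.4 h.

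Of the genes beside Flt3, Urad, 8.30 kb away, had 0 or 1 counts in each library, and Pan3, 29.7 kb away on the other side, which encodes a subunit of a deadenylase complex, had a log2 fold change of 0.016 at 2 h (edgeR adjusted p = 0.691) and 0.36 at 24 h (edgeR adjusted p = 1.19e-09). The antisense gene Gm26597, which overlaps the Flt3 start, had 0 to 2 counts, which may depend on how reads in the overlap were counted.

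Runx1 (ENSMUSG00000022952) spans 225 kb of chromosome 16, from 92601466 to 92826149 on the minus strand. It had 3110 and 3108 CPM at 0 h, from 143938 and 138004 counts, and 2966 and 2919 CPM after 30 min. Levels were 2401 and 2359 CPM after 1 h, 1305 and 1276 CPM after 2 h, and 1051 and 1062 CPM after 6 h. All later libraries were between these and the untreated level, with 1393 and 1575 CPM after 12 h, 1849 and 1814 CPM after 15 h, 1733 and 1531 CPM after 18 h, 1853 and 2028 CPM after 21 h, and 2033 and 2035 CPM after 24 h. Both libraries of every induced time point lay under both untreated ones.

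The log2 fold change of Runx1 was -0.079 at 30 min (standard error 0.0517, edgeR adjusted p = 0.372) and -0.39 at 1 h (standard error 0.0518, edgeR adjusted p = 2.34e-06). Runx1 fell 2.41-fold by 2 h (log2 fold change -1.27, standard error 0.0526, edgeR adjusted p = 1.05e-14) and 2.94-fold by 6 h (log2 fold change -1.56, standard error 0.0530, edgeR adjusted p = 2.24e-16). After 12 h its value was -1.07 (edgeR adjusted p = 9.45e-14), but without replicate 1 of 12 h it was -0.98 and no longer past the 2-fold limit. At 18 h it was -0.93, and -1.02 and past the limit without replicate 1 of that time point. At 24 h Runx1 remained lower than at 0 h, with a log2 fold change of -0.61 (standard error 0.0520, edgeR adjusted p = 5.15e-10), which is a 1.53-fold difference. It was 1.93-fold higher at 24 h than at 6 h (log2 fold change 0.95, standard error 0.0524, edgeR adjusted p = 6.02e-13), short of the 2-fold limit. With library totals alone as the scaling, the log2 fold change of Runx1 at 24 h was 0.68 against 6 h and -0.87 against 0 h. Of 12056 genes averaging at least 1 CPM, 503, 422 and 3562 had a lower log2 fold change at 2, 6 and 24 h. The midpoint of the fall on the log2 scale was passed at 86.7 min (87.9 and 85.5 min in the single replicates) and its lowest level was at 6 h. Counts were taken over the whole gene and do not separate the starts printed above. The gene Gm26626, antisense to Runx1 and within its span, had 0 counts. The strand setting of the counting is not stated, so this does not show that its RNA was absent. The nearest genes were Clic6 with 0 to 3 counts and, at 757 kb, Setd4 with a log2 fold change of 0.40 at 2 h (edgeR adjusted p = 0.00152).

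**Figure D2:**
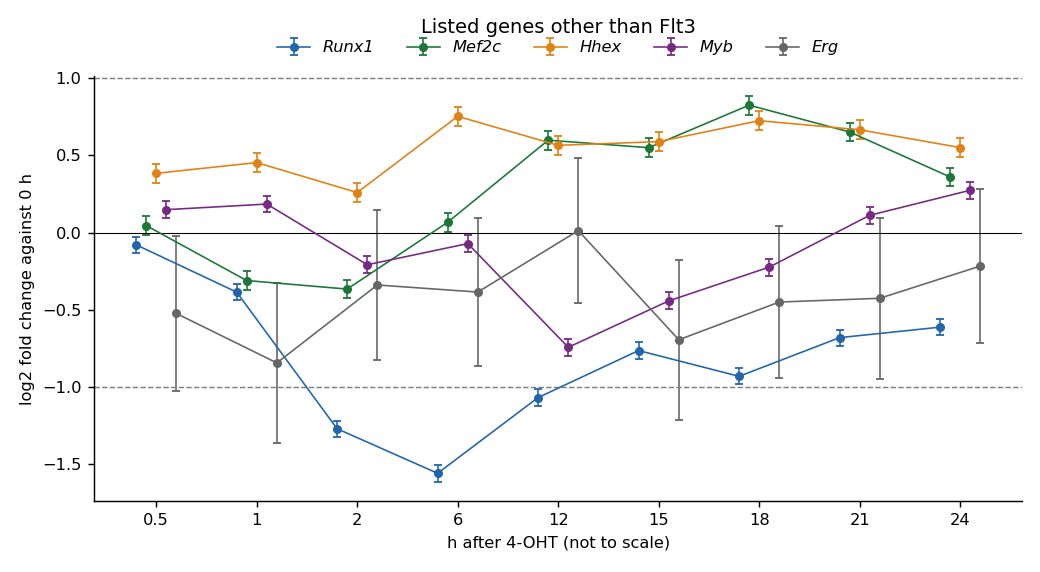
Log2 fold change against 0 h (vertical axis) of Runx1, Mef2c, Hhex, Myb and Erg at each time after 4-OHT (horizontal axis, not to scale), with bars of 1 standard error from the model and dashed lines at a 2-fold change. Runx1 alone crosses a dashed line, at 2, 6 and 12 h, and the bars of Erg are the widest.

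Mef2c, Hhex and Myb were expressed throughout and never passed the 2-fold limit. Mef2c (ENSMUSG00000005583, chromosome 13, 83504034 to 83667080) encodes a MADS box factor with roles in lymphoid progenitors and in B cell survival. It had 670 and 685 CPM at 0 h and 686 and 711 CPM after 30 min. It then stood at 540 and 552 CPM after 1 h and 522 and 529 CPM after 2 h, under both untreated libraries, with a log2 fold change of -0.37 at 2 h (standard error 0.0608, edgeR adjusted p = 2.47e-05). At 6 h it had 698 and 720 CPM. From 12 to 24 h the levels were above every library of 0 to 6 h, with 1074 and 975 CPM after 12 h, 971 and 1010 CPM after 15 h, 1094 and 1303 CPM after 18 h, 1118 and 1007 CPM after 21 h, and 886 and 852 CPM after 24 h. The largest log2 fold change was 0.82, at 18 h (standard error 0.0607, edgeR adjusted p = 5.12e-11), a 1.77-fold difference. At 24 h it was 0.36 (standard error 0.0606, edgeR adjusted p = 1.52e-05), and the adjusted p ran from 6.49e-21 to 0.085 over the alternatives tried, in edgeR or DESeq2. With library totals alone as the scaling it was 0.10 (edgeR adjusted p = 0.085). That scaling shifts all genes by nearly the same amount, the median at 24 h moving from -0.011 to -0.268. The value of Mef2c relative to the median, 0.37, is therefore the same under both scalings by construction and does not test the change. From 2 to 24 h the log2 difference was 0.72 (standard error 0.0610, edgeR adjusted p = 5.47e-10).

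Hhex (ENSMUSG00000024986, chromosome 19, 37434810 to 37440731) encodes a homeobox factor that lymphoid progenitors need. Its untreated libraries, at a mean of 19.0 ± 1.38 CPM (SD, n = 2), were the lowest of all 20. It was at 24.8 CPM in both libraries at 30 min and was the only listed gene to pass the adjusted p at that time (log2 fold change 0.38, standard error 0.0617, edgeR adjusted p = 0.000156). Without replicate 1 of 0 h the value was 0.31 and the edgeR adjusted p 0.0107, the highest of the alternatives, which ran from 1.08e-07 to 0.0107. Levels were 26.8 and 25.2 CPM after 1 h, 23.9 and 21.6 CPM after 2 h, and 31.9 and 32.2 CPM after 6 h, where the log2 fold change was largest at 0.75 (standard error 0.0600, edgeR adjusted p = 4.09e-10). Later libraries held 27.2 to 31.7 CPM, with 28.1 and 27.6 CPM after 24 h (log2 fold change 0.55, standard error 0.0619, edgeR adjusted p = 5.06e-08). With library totals alone as the scaling, the log2 fold change of Hhex at 24 h was 0.29 (edgeR adjusted p = 0.000235).

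Myb (ENSMUSG00000019982, chromosome 10, 21124935 to 21160984) encodes a factor needed by blood progenitors and by B cells at the pro-B to pre-B transition. It had 567 and 572 CPM at 0 h, 627 and 636 CPM after 30 min, 644 and 651 CPM after 1 h, 490 and 496 CPM after 2 h, and 540 and 545 CPM after 6 h. Its lowest libraries were those of 12 h, at 375 and 307 CPM (log2 fold change -0.74, standard error 0.0549, edgeR adjusted p = 9.35e-11). From there the levels were 418 and 421 CPM after 15 h, 481 and 495 CPM after 18 h, 628 and 604 CPM after 21 h, and 695 and 683 CPM after 24 h, the highest of all. The log2 fold change at 21 h was 0.11 (standard error 0.0543, edgeR adjusted p = 0.0664), or -0.12 with library totals alone. At 24 h it was 0.27 (standard error 0.0542, edgeR adjusted p = 0.000105), and the adjusted p ran from 2.94e-12 to 0.788 over the alternatives, in edgeR or DESeq2. With library totals alone it was 0.016 (edgeR adjusted p = 0.788). Relative to the median of all genes it was 0.28 under both scalings, which again follows from the common shift and does not test the change.

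Levels of different genes were compared per kb of whole annotated gene span. Runx1 and Mef2c also have starts as far as 129 and 69.6 kb into the gene, which the counts do not separate. A shorter transcribed span would give a higher level per kb, so the order given here holds for the whole span only. On this scale Myb was the highest of the listed genes at every time point, with 15.8 ± 0.101 CPM per kb at 0 h (SD, n = 2) and 19.1 ± 0.227 at 24 h. Runx1 followed at 0 h with 13.8 ± 0.00672 CPM per kb, then Mef2c with 4.15 ± 0.0650, Hhex with 3.21 ± 0.234 and Flt3 with 0.0168 ± 0.00138. At 6 h Hhex, at 5.41 ± 0.0331 CPM per kb, was above Runx1, at 4.70 ± 0.0362, and Mef2c, at 4.35 ± 0.0967. Runx1 and Mef2c overlapped between replicates at 12 h, with 6.61 ± 0.572 and 6.28 ± 0.428 CPM per kb, and at 18 h, with 7.26 ± 0.635 and 7.35 ± 0.907. At 24 h the order was that of 0 h, and Flt3, at 0.782 ± 0.148 CPM per kb, was still under Hhex, at 4.70 ± 0.0551. Averaged over all libraries, the level per kb exceeded that of 99.1% of the genes tested for Myb, 97.9% for Runx1, 94.8% for Mef2c, 93.8% for Hhex, 40.7% for Flt3 and 1.38% for Erg.

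**Figure D3:**
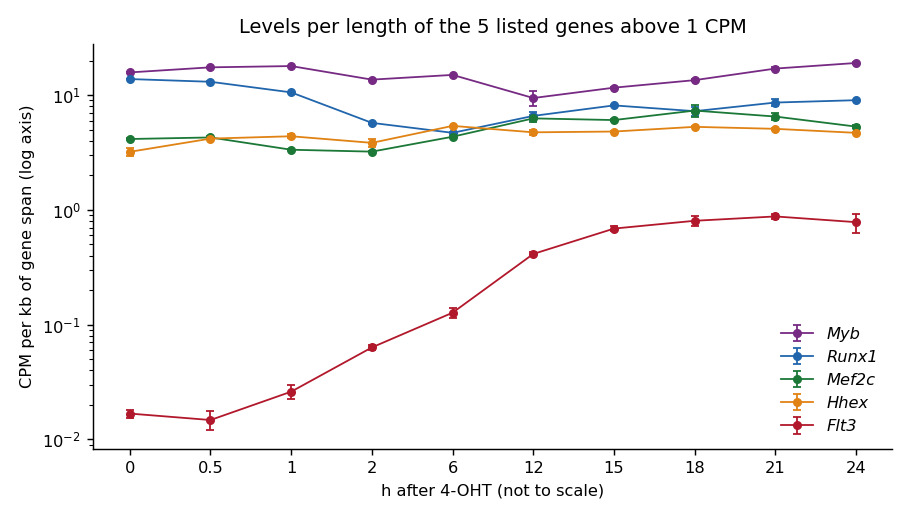
Level per kb of gene span in CPM (vertical axis, logarithmic) of the 5 listed genes averaging at least 1 CPM, by time after 4-OHT (horizontal axis, not to scale). Points are means of 2 libraries with bars of 1 SD. Flt3 stays below the others although it climbs from 0.0168 to 0.782 CPM per kb, and Hhex, Runx1 and Mef2c come close to each other at 6 h.

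Kit, Cd34, Meis1 and Lmo2 were at the floor, and their changes were not detectable at this depth. Kit (ENSMUSG00000005672, chromosome 5, 75574916 to 75656722) had 0 to 2 counts per library and 13 in all 20 libraries together (exact 95% Poisson interval 6.92 to 22.2). It was at 0 in 10 libraries, those of 2, 6 and 15 h among them, with 1 and 1 count at 0 h and 0 and 1 after 24 h. Cd34 (ENSMUSG00000016494, chromosome 1, 194938819 to 194961279) had 0 to 2 counts per library and 16 in all (9.15 to 26.0), with 2 and 0 at 0 h and 0 and 0 after 24 h. A count of 0 in a library allows up to 3 counts, and intervals and floors cover counting error only.

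Meis1 (ENSMUSG00000020160, chromosome 11, 18879817 to 19018985), a homeobox partner of HOX proteins in stem cells, had 7 counts in all (exact 95% Poisson interval 2.81 to 14.4) and 0 in 15 libraries. Its highest count, 3, was in replicate 1 of 15 h, whose other replicate had 0. Lmo2 (ENSMUSG00000032698, chromosome 2, 103957986 to 103981878) had 8 counts in all (3.45 to 15.8) and 0 in 14 libraries, including those of 0, 2, 6, 15 and 24 h. Genes on the opposite strand overlap Cd34 (Gm16897, 1 to 34 counts) and Lmo2 (4931422A03Rik, 3 to 47 counts), and the 5 genes that overlap Meis1 had 0 counts. Whether the counting used strand is not stated in the sources used here, so low counts of overlapping genes do not show that their RNA was absent.

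Erg (ENSMUSG00000040732, chromosome 16, 95359169 to 95586593), which encodes an ETS factor of stem cell maintenance, lay just above the floor. It had 5 to 13 counts per library and 165 in all (exact 95% Poisson interval 141 to 192), with 11 and 13 at 0 h and 7 and 9 after 24 h. No time point passed the adjusted p. Its log2 fold change was -0.84 at 1 h (standard error 0.517, edgeR adjusted p = 0.200) and -0.22 at 24 h (standard error 0.496, edgeR adjusted p = 0.698), and the sign of its differences at 6, 12, 18 and 21 h depended on single libraries or on the scaling.

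**Figure D4:**
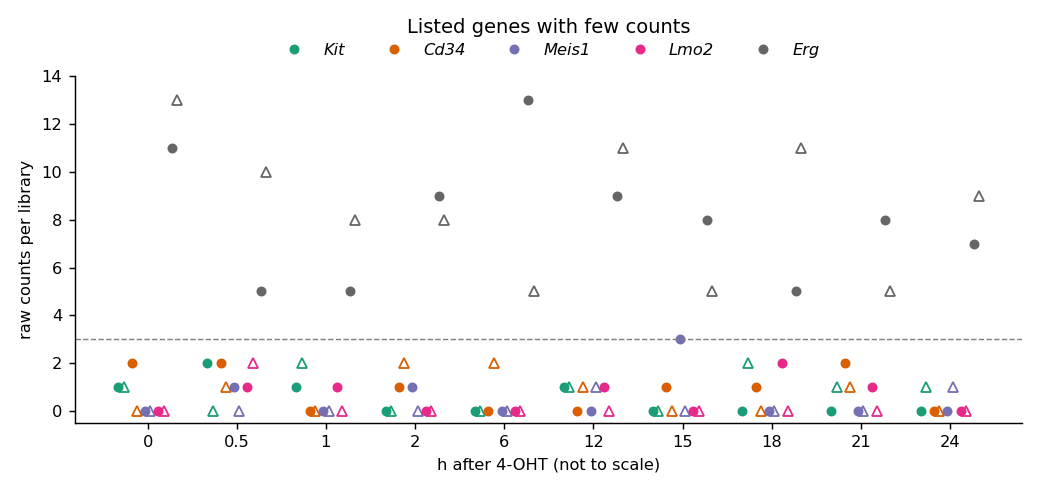
Raw counts per library (vertical axis, linear) of Kit, Cd34, Meis1, Lmo2 and Erg by time after 4-OHT (horizontal axis, not to scale), with filled circles for replicate 1, open triangles for replicate 2 and a dashed line at the floor of 3 counts. Every library lies at or below the line for the first 4 genes, and Erg has 5 to 13 counts.

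The shapes of the time courses were compared by Pearson's r of the mean log2 CPM across the 10 time points, which share libraries and are given as descriptions. Flt3 was most like Mef2c (r = 0.83) and Hhex (r = 0.73) among the listed genes, and Runx1 was most like Myb (r = 0.48) and least like Hhex (r = -0.57). Among 12051 other genes averaging at least 1 CPM, the one most like Flt3 was Gm26903, an antisense RNA gene on chromosome 9 (r = 0.996), though 2172 genes exceeded 0.9. Runx1 was most like Tiam1 (r = 0.981, with 60 genes above 0.9), which encodes an activator of RAC1 and lies on the same chromosome, from 89787111 to 90143769. Tiam1 went from 393 CPM at 0 h to 20.7 CPM at 2 h (log2 fold change -4.24, edgeR adjusted p = 1.90e-20), 18.2 CPM at 6 h and 120.1 CPM at 24 h. The genes most like the others were Ccdc88a for Mef2c (r = 0.980, 295 genes above 0.9), Adprm for Hhex (r = 0.956, 16 genes) and Nlgn2 for Myb (r = 0.958, 8 genes).

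Ligands, partner proteins and close relatives of the listed genes were followed as a list of 24, of which 16 were tested and 5, Kitl, Hoxa9, Lmo1, Lyl1 and Gata2, were at the floor in every library. The ligands had few counts, Kitl 0 to 3 per library and Flt3l 0 to 4. Genes that overlap them were not looked up, so these counts do not show that their RNA was absent. At 24 h 5 genes of the list were called up (Pbx3, Pbx2, Pbx4, Meis3 and Mybl1) and 4 down (Tal1, Mybl2, Runx2 and Runx3), while 40.1% of all genes were called in either direction, with a median log2 fold change of -0.071 beside -0.011 over all genes tested. None of the 16 was called at 30 min (0.0542% of all genes up, 0.410% down), and 2 up and 3 down were called at 2 h (6.25% of all genes up, 6.91% down). Meis3 had only 2 to 18 counts per library, and such a gene passes the filter through the time points where it is high, which favours a rise.

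The largest rise was that of Pbx3, a homeodomain partner of MEIS and HOX proteins. Pbx3 had 422 and 429 CPM at 0 h, 496 and 496 CPM after 2 h, 834 and 754 CPM after 12 h, and 5559 and 5407 CPM after 24 h. The rise was 12.9-fold at 24 h (log2 fold change 3.69, standard error 0.0564, edgeR adjusted p = 8.61e-23). Its relatives Pbx2 (log2 fold change 1.40, standard error 0.0782) and Pbx4 (1.28, standard error 0.0863) rose as well, Pbx4 already at 2 h, with 19.9 and 20.5 CPM against 7.71 and 7.21 CPM at 0 h.

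Tal1, which encodes a helix-loop-helix factor that pairs with LMO2 in stem cells, showed the largest fall. It had 300 and 250 counts at 0 h, 19 and 19 after 2 h, and then 5 and 4 after 24 h, with a log2 fold change of -3.69 at 2 h (standard error 0.212, edgeR adjusted p = 2.63e-12) and of -5.53 after 24 h (standard error 0.289, edgeR adjusted p = 1.11e-13). Mybl2, a relative of Myb that works in dividing cells, fell from 174 and 169 CPM at 0 h to 75.1 ± 0.203 CPM (SD, n = 2) after 2 h and 10.8 and 10.0 CPM after 24 h (log2 fold change -4.04, standard error 0.0781, edgeR adjusted p = 3.19e-21). Runx2, known from bone formation, was at 10.8 and 10.3 CPM at 0 h, 10.2 and 11.2 CPM after 2 h, and 2.56 and 2.23 CPM after 24 h (log2 fold change -2.14, standard error 0.157, edgeR adjusted p = 4.57e-11).
Some partners are given for their role, chosen after their values were seen. Cbfb, the non-DNA-binding subunit that all RUNX proteins share, had 245 ± 6.08 CPM at 0 h and 243 ± 4.98 CPM at 24 h (SD, n = 2). Fli1, the closest relative of Erg, was at 1759 ± 6.76 CPM at 0 h, 857 ± 8.65 CPM at 2 h, when it was called down, and 1374 ± 30.7 CPM at 24 h.

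A list of 30 other stem and progenitor genes was followed in the same way. Of its 18 genes tested, 3 were called up at 24 h (Sox4, Tek and Hmga2) and 9 down (Gfi1b, Cdk6, Esam, Etv6, Hlf, Hoxb4, Ly6a, Nfe2 and Slamf1), while 40.1% of all genes were called in either direction. The median log2 fold change was -1.03 beside -0.011 over all genes, and 9 of the 30 were at the floor in every library. Among those called, Hlf had 0 to 20 counts per library with its highest level at 0 h, and Hmga2 had 4 to 27 with its highest level at 21 h. Of the 18, 0 were called at 30 min, when 0.0542% of all genes were called up and 0.410% down, and 7, all down, at 2 h, when 6.91% of all genes were called down. Egfl7, among those 7, had 1 to 12 counts per library with its highest level at 0 h. Genes with so few counts pass the filter through the time points where they are high, so that the filter itself favours their direction. Between 2 and 24 h, 4 of the 18 were called up and 5 down, beside 16.2% and 16.6% of all genes, and the median log2 difference was 0.41 beside -0.0035 over all genes. Gfi1b, a transcriptional repressor of stem, erythroid and early B cells, fell from 25.8 and 26.7 CPM at 0 h to 7.20 and 6.34 CPM after 2 h and 2.36 and 3.18 CPM after 24 h (log2 fold change -3.24, standard error 0.120, edgeR adjusted p = 2.31e-16).
Cdk6, a cyclin-dependent kinase of progenitor division, fell from 3612 and 3625 CPM to 567 and 568 CPM after 24 h (log2 fold change -2.67, standard error 0.0319, edgeR adjusted p = 2.88e-24). Esam, a cell adhesion molecule that marks stem cells, fell from 5.62 and 5.18 CPM to 1.13 and 1.25 CPM (log2 fold change -2.17, standard error 0.130, edgeR adjusted p = 1.16e-12). Against this, Sox4, an HMG box factor of progenitors and early B cells, rose from 25.9 and 25.6 CPM to 80.8 and 73.3 CPM (log2 fold change 1.58, standard error 0.0574, edgeR adjusted p = 1.66e-16). Tek, the receptor of angiopoietins on stem cells, was at 12.2 and 12.3 CPM at 0 h, 7.49 and 7.74 CPM after 1 h and 20.45 and 20.76 CPM after 6 h. Tek then stood at 7.45 and 7.15 CPM after 12 h and 27.5 and 24.3 CPM after 24 h (log2 fold change 1.07, standard error 0.0714, edgeR adjusted p = 7.97e-12).

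**Figure D5:**
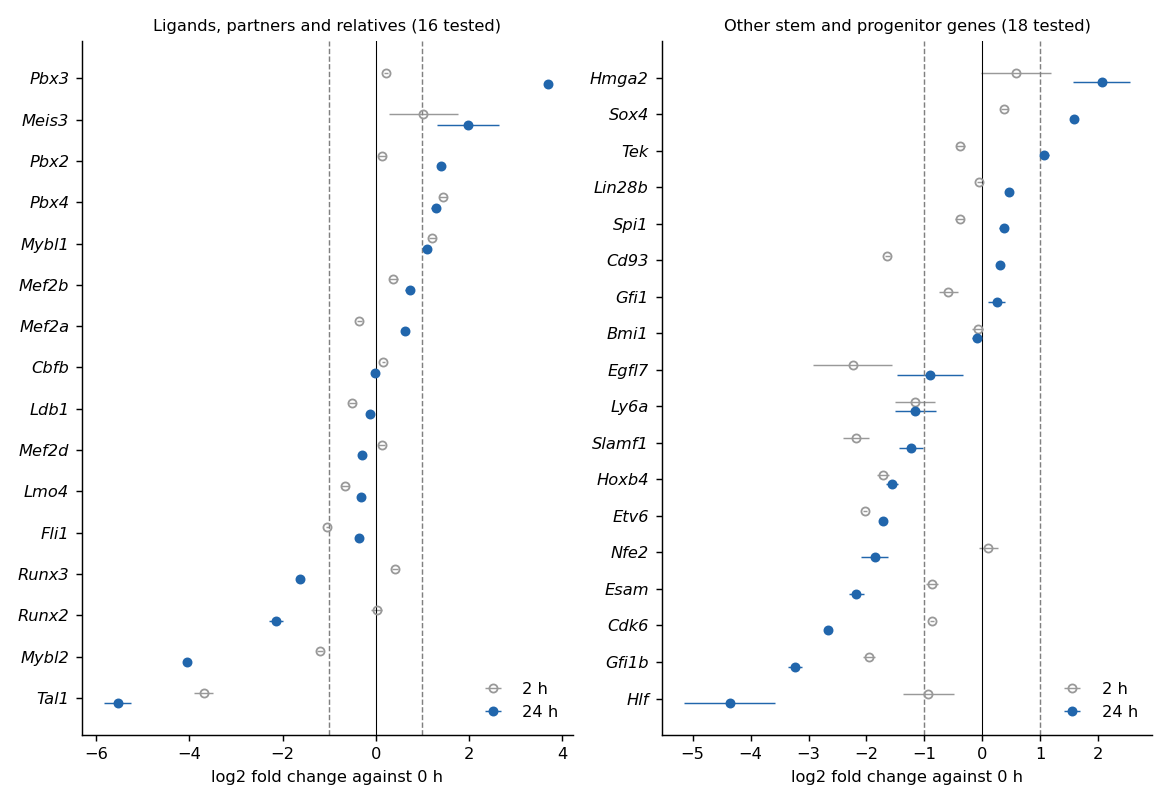
Log2 fold change against 0 h (horizontal axis) at 2 h (open grey circles) and 24 h (filled blue circles) of the genes tested in the list of ligands, partners and relatives (left, 16 genes) and of other stem and progenitor genes (right, 18 genes), ordered by the 24 h value, with bars of 1 standard error and dashed lines at a 2-fold change. Pbx3 stands farthest to the right and Tal1 farthest to the left on the left side, and on the right side more genes lie beyond the lower line than beyond the upper one.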

How the data were processed

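Chromatin-associated RNA of B3 cells carrying Ikaros-ERt2 was sequenced with a directional, rRNA-depleted library kit at 10 time points after 500 nM 4-OHT, in 20 libraries. The authors aligned reads to mm10 with STAR through nf-core/rnaseq, counted them per gene with featureCounts on GRCm38, and deposited raw counts without normalization. The submitters' processing notes also name CASAVA 2.17. Annotation release and strand setting are not given in the sources used here. Long genes gather more reads in such counts, so that levels of different genes are given per kb of gene span.

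Groups and replicate numbers came from the labels. A minimum of 10 counts in 2 or more libraries kept 16601 of 56239 genes, which were tested with edgeR 4.0.16 in R 4.3.3 (quasi-likelihood test on TMM-scaled counts, time as a factor, all 20 libraries in 1 model, no block), with Benjamini-Hochberg adjustment over all of them. The labels do not state separate cultures, so p-values measure the spread between libraries of the same time point, which may be technical. That spread was estimated per gene over all time points together, not for each comparison. For Mef2c the standard error was 0.0608 at 2 h (522 and 529 CPM) and 0.0607 at 18 h (1094 and 1303 CPM). Where replicates differed most, at 12 and 18 h, standard errors may therefore be too small and p-values too low. Standard errors were derived from the log2 fold change and its F value, and log2 CPM used a prior count of 2. The floor was fixed at 3 counts for libraries of 33296158 to 46868954 counts each, and reads carry no molecular identifiers. Gene positions came from GENCODE M21, which holds 55240 of the identifiers, and promoters from RefSeq. The steps were tested on simulated counts.

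The listed genes and the lists of partners, other stem and progenitor genes and markers were chosen with earlier results of these data known. Named genes are the 10 listed, up to 3 with the largest rise and 3 with the largest fall at 24 h in each further list among called genes averaging at least 1 CPM (in the second list Tek and Sox4 were the only ones to qualify as rising), the gene most like each listed one, and cell type markers, of which 1 is not reported here. Other genes, named within counts or for their role, were chosen after their values were seen. Alternatives were DESeq2 (1.42.0), its size factors, library totals only, no filter or at least 10 counts in every library, other thresholds, the replicate block, the compared time points alone, and leaving out single libraries. Ranges of the adjusted p over the alternatives hold values of DESeq2 as well as of edgeR. Other assays of the study were not analysed here.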

Additional observations from a re-analysis of the deposited data

How the results depend on the processing

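Flt3 was called up from 2 h on, and Runx1 down at 2 and 6 h, under every alternative tried. Dropping the fold limit gave 1 listed gene at 30 min, 4 at 1 h, 5 at 2 h, 5 at 12, 15 and 18 h, 4 at 21 h, 5 at 24 h, 5 for 24 against 2 h, 5 for 24 against 6 h, 5 over the time course, and 14 of the partners at 24 h against 9 with it. Scaling by library totals gave 2 called genes at 18 h, with Runx1 at -1.05. Without single libraries the number called was 1 to 2 at 12 h, where Runx1 ran from -1.16 to -0.98, and 1 to 2 at 18 h, where it ran from -1.02 to -0.84. On the CPM scale the half-maximal times were 12.4 h for Flt3 and 1.27 h for Runx1.

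The signs that turned were of values short of the adjusted p of 0.01 as reported. Myb at 21 h was -0.12 with library totals (edgeR adjusted p = 0.0346, over a range of 0.00533 to 0.27). Erg at 12 h was -0.0063 with DESeq2, -0.0031 with its size factors, -0.0070 without the filter and -0.00012 with the compared time points alone, and without single libraries it ran from -0.13 to 0.17. Erg ran from -1.27 to 0.20 at 6 h, -1.21 to 0.10 at 18 h, -0.95 to 0.036 at 21 h, -0.047 to 0.29 for 24 against 2 h (-0.14 with library totals) and -0.41 to 1.06 for 24 against 6 h (-0.092 with library totals), and the cause was not tested. It could not be fitted with at least 10 counts required in every library.

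Replicate numbers did not pair the libraries in a uniform way, with a mean correlation of same-numbered deviations of 0.0304 over 45 pairs of time points (-0.678 to 0.477, 7876 genes). Of these pairs 18 were above 0.1, so a mean near 0 does not show that deviations were independent. With the replicate block the called counts were 0 at 30 min and 1 h, 2 at 2, 6 and 12 h, 1 from 15 h on and 2 over the time course, as without it, and 8 partners against 9. The time course could not be fitted without a whole replicate number, which leaves no residual degrees of freedom, and leaving out each library in turn was added after seeing the data. Counts of Kit, Cd34, Meis1, Lmo2 and Erg set the limit of depth.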
